A study of Mus musculus with 2 samples.

Results

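The skeletal muscle genes of 2 newborn mouse tissues, tooth and skin, are described here as 52 genes of the sarcomere, the excitation and calcium machinery, muscle energy supply and the myogenic regulators. They were taken by name: every non-control spot of both arrays whose gene name was one of the 52 was kept, and all 52 were found, as 71 probes, among 24323 named genes. The series held 1 tooth array and 1 skin array from P0 wild-type mice, hybridised in 1 colour on the same slide of a 60-base oligonucleotide platform. P0 is the age in the labels of both, while the methods give the day after birth and C57BL/6J as the strain. The tooth was an incisor germ with epithelium and mesenchyme, the skin was taken with its hair follicles, and neither the number of animals nor the body site of the skin was given.

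Skeletal muscle fibres form when myoblasts, committed by the bHLH factors MyoD and Myf5 and driven to differentiate by myogenin, withdraw from the cell cycle and fuse. The fibres then assemble sarcomeres in which myosin filaments pull on actin filaments under the control of troponin. Fetal and newborn fibres use embryonic and perinatal myosin, cardiac actin and the gamma subunit of the acetylcholine receptor, and exchange them after birth for adult fast or slow isoforms. Mouse trunk skin lies on the panniculus carnosus, a thin sheet of striated muscle, and the incisor develops in the jaw, beside the muscles of mastication and the tongue.

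Muscle isoforms are coded by closely related genes, so a few of their probes are shown first. The embryonic myosin heavy chain gene Myh3 and the perinatal gene Myh8 had probes to the 3′ part of their transcripts, at chr11:66915107-66915166 and chr11:67121925-67121984 (mm9, plus strand). The Myh8 probe is the one that stands for its gene, while Myh3 is represented by its brighter, second probe. Placed over each other without gaps, the probes overlapped by 48 bases, of which 29 matched, and the matching bases are in capitals.

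Myh3: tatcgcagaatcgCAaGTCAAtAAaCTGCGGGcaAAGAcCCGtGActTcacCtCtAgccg
Myh8: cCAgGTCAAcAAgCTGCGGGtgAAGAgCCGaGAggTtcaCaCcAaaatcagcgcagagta

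The fast troponin T gene Tnnt3 had 2 overlapping probes, at chr7:149698467-149698526 and chr7:149698500-149700262 (mm9, plus strand), and the second crossed an intron, since its 60 bases spanned 1763 bases of the genome. The 27 bases that both probes hold are in capitals.

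Tnnt3, first probe: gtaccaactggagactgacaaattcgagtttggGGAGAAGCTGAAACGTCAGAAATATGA
Tnnt3, second probe: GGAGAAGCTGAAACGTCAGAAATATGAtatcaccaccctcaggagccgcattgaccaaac

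A further 4 probes that crossed introns are shown because their genes mark the ends of the range found: Actn2 with the largest difference among the members, Ckm with one of the larger ones, Tnnc1 measured in skin alone and Chrng measured in neither tissue. They lie at chr13:12364990-12367362 (minus strand), chr7:20002222-20004829, chr14:32023360-32023776 and chr1:89106072-89106353 (plus strand) in mm9.

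Actn2: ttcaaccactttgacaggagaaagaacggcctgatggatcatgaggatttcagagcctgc
Ckm: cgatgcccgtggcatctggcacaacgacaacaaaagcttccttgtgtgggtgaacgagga
Tnnc1: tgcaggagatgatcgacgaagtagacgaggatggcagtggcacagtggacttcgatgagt
Chrng: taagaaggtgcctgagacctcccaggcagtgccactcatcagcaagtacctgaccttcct

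Over all 2485 pairs of member probes, the closest pair of different genes, Mybpc2 and Mybpc1, matched at 31 bases, and Myoz2 and Eno3, which are unrelated, matched at as many. Of the 71 probes, 13 crossed an intron. The remaining probes were given by the files as single blocks, and whether they lie in coding or noncoding exon sequence was not determined here.

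Levels are signals on a log2 scale on which 0 is the 75th percentile of the array's own probes. A probe counted as measured when more than 50% of its spots were well above background, and a gene when its brightest probe was so on at least 1 array. A difference is skin minus tooth, so that 1 is 2-fold higher in skin. Spots that repeat a probe on 1 array, over 294 probes in tooth and 284 in skin, set a technical SD of 0.12 for a difference. With 1 array per tissue there was no replicate check, no test was possible, and that SD covers spot scatter alone. The tissue labels were borne out by their markers: the enamel matrix genes Amelx, Ambn and Enam were well above background in tooth alone, and the epidermal genes Krt1, Krt10 and Lor were higher in skin by 8.39 to 9.93. Of 8 housekeeping genes, all were within 2-fold between the arrays, with differences of -0.76 to 0.42.

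Of the 52 muscle genes, 46 were measured (88.5%, against 71.6% of all named genes). Of those 46, 36 were at least 2-fold higher in skin (78.3%), where the share among all 17409 measured genes was 14.2%. Only 1, Myh2, was at least 2-fold higher in tooth, where the share of all genes was 15.5%, and its skin value was not well above background. The median difference of the 46 was 2.30, a 4.91-fold higher signal in skin, against a median of -0.04 over all genes. The middle 50% of the members lay between 1.28 and 3.11, and that of all genes between -0.58 and 0.47. By measured values 13 members were at least 8-fold higher in skin, while 4.69% of all genes were. With dim values at their bound 12 members and 3.84% of all genes were, Myf6 being the member lost. With each dim value set at the lowest signal that was well above background on its array, 36 members were at least 2-fold higher in skin (14.0% of all genes) and the median was 1.95. Another scaling moved the level of every gene: with the spike-in controls in place of the percentile, the median gene shifted by -0.63, 9.02% of all genes passed 2-fold toward skin and 32.6% toward tooth, and 31 members passed 2-fold toward skin and 5 toward tooth. With the arrays centred on their medians the median gene shifted by -0.25, 11.6% and 20.1% of all genes were past 2-fold in skin and tooth, and 34 and 2 members were.

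**Figure D1:**
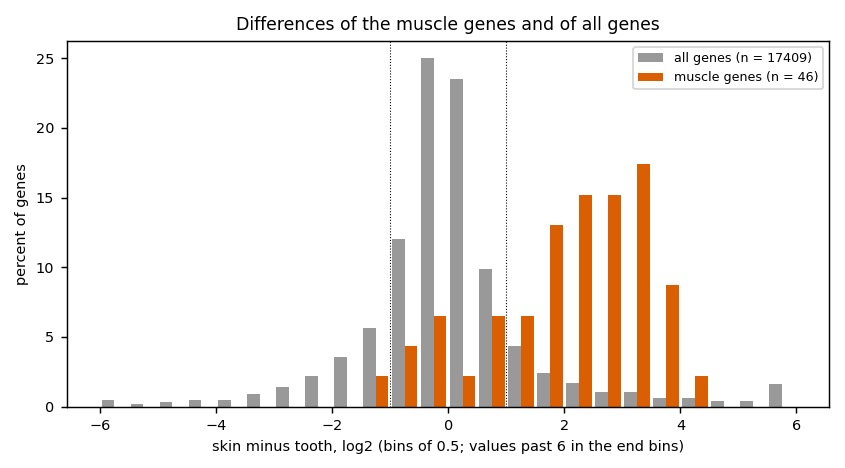
Skin minus tooth differences (log2, bins of 0.5) of the 46 measured muscle genes and of all 17409 measured genes, each as a percent of its genes, with dotted lines at 2-fold. The muscle genes are centred near 2.30 and the genes of the array near -0.04, and 6 muscle genes lie below 0.

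**Figure D2:**
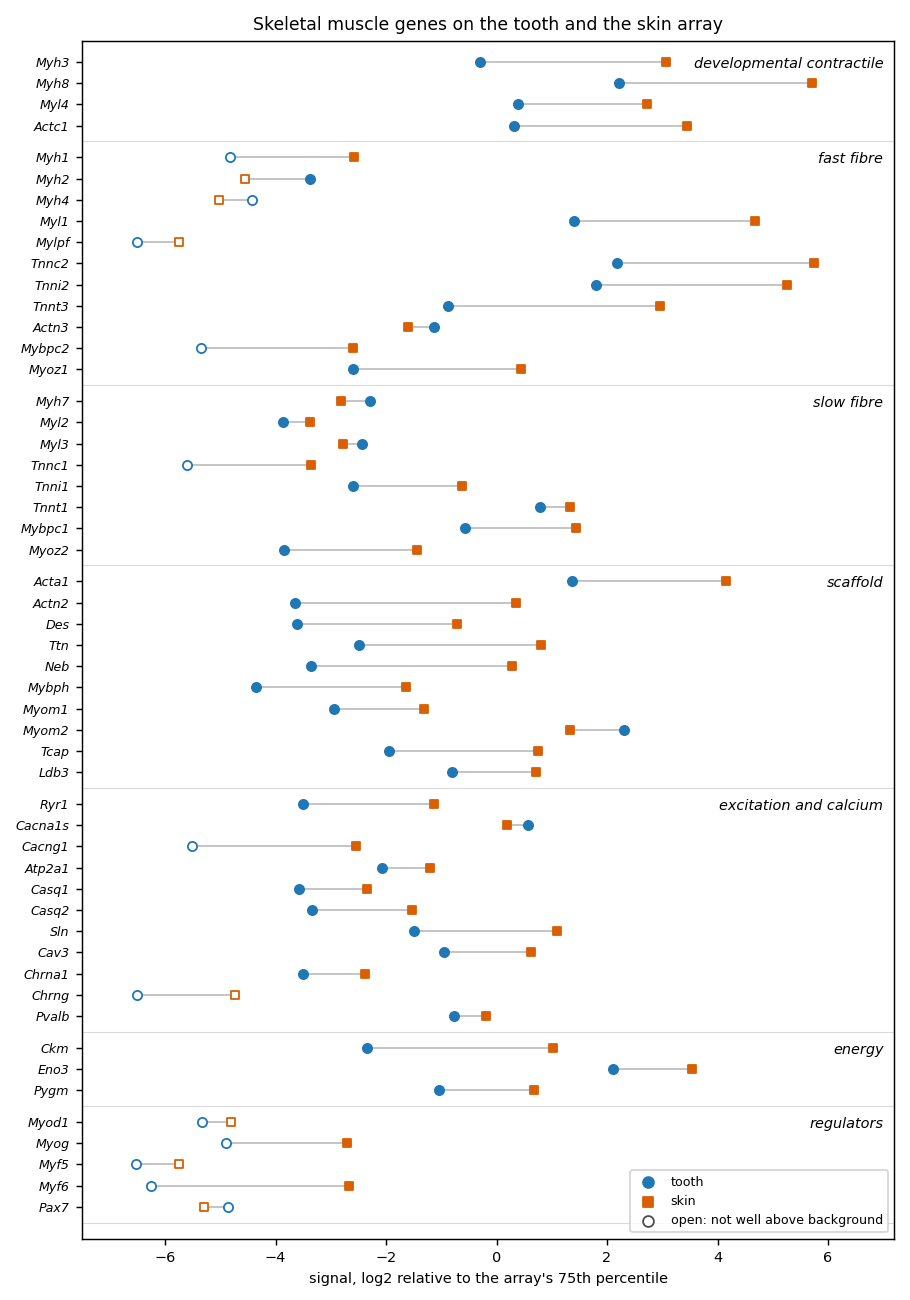
Signal of the 52 muscle genes on the tooth (circles) and skin (squares) arrays, in log2 relative to each array's 75th percentile, grouped by role; open symbols were not well above background and lines join the values of a gene. Skin lies to the right of tooth for 40 of the 46 measured genes, and Mylpf, Myh4, Chrng, Myod1, Myf5 and Pax7 have open symbols on both arrays.

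All 4 developmental contractile genes were measured on both arrays, each passed 2-fold toward skin, and their median difference was 3.24. Myh8, the perinatal myosin heavy chain, was at 2.21 in tooth and 5.70 in skin, an 11.2-fold higher signal in skin. Myh3, the embryonic heavy chain, was at -0.30 in tooth and 3.06 in skin, which is 10.2-fold. The differences of the 2 genes, 3.49 and 3.35, were 0.14 apart, close to the spot scatter. Averaging all probes of each gene set Myh8 against Myh3 by -1.39, but that average includes a Myh8 probe measured in neither tissue. The other Myh3 probe, the one printed above, gave -0.78 and 2.74, a difference of 3.52. Actc1, cardiac alpha-actin and the main sarcomeric actin of fetal muscle, was at 0.31 in tooth and 3.44 in skin, or 8.77-fold higher. Myl4, the embryonic and atrial essential light chain, was at 0.38 and 2.73, or 5.09-fold higher. Skin was the higher tissue for each of these genes, and tooth was nonetheless well above background for all 4.

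By measured values the adult myosin heavy chains differed from one another in direction. With normexp background correction, the differences of Myh2 and Myh7, the 2 toward tooth, were -0.02 and -0.01. Together with Myh3 and Myh8, the fast genes Myh2, Myh1 and Myh4 lie in 1 cluster on chromosome 11, read here by probes between 66915107 and 67121984 in mm9 and placed in the order Myh3, Myh2, Myh1, Myh4 and Myh8. Myh1, the fast IIx chain, was not well above background in tooth and was at -2.58 in skin, at least 3.83-fold higher. Myh2, the fast IIa chain, was at -3.37 in tooth and not well above background in skin, at least 1.29-fold higher in tooth. Myh4, the fast IIb chain that dominates adult mouse limb muscle, was not well above background in either tissue. Myh7, the slow chain on chromosome 14, which the heart also makes, was at -2.30 in tooth and at -2.81 in skin, so that it differed by -0.51. The differences of Myh3 and Myh8 were 3.87 and 4.0 larger than that of Myh7 on the log2 scale. For Myh8 this was 2.56 when its 4 probes were averaged, which gave the gene a difference of 2.05. Among those 4, 1 probe was measured in neither tissue and 1 in skin alone. Another, measured on both arrays, gave 0.94.

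Of 11 fast-fibre genes, 9 were measured, 7 were at least 2-fold higher in skin, 5 of them at least 8-fold, and the median difference was 3.04. Tnnt3, fast troponin T, was at -0.88 in tooth and 2.95 in skin, or 14.1-fold higher. Tnnc2, fast troponin C, was at 2.18 and 5.74, or 11.8-fold higher. Tnni2, fast troponin I, was at 1.80 and 5.26, or 11.1-fold higher. These 3 subunits of 1 complex, which binds calcium and uncovers the myosin sites on actin, were therefore 3.47 to 3.82 higher in skin. The second Tnnt3 probe, which shares 27 bases with the first, was at -1.45 and 1.42, a difference of 2.87. Myl1, the fast essential light chain, was at 1.40 in tooth and 4.68 in skin, or 9.76-fold higher. Its other probe, which crosses an intron near the start of the transcript, was not well above background in tooth and gave -0.48 in skin, and the mean of both probes differed by 3.75. Myoz1, a Z-disc protein that binds calcineurin, was at -2.60 and 0.44, or 8.21-fold higher, and Mybpc2, fast myosin-binding protein C, was measured in skin alone, at -2.59, at least 3.79-fold higher. Both of these sat on the side of the troponins.

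A pair of fast-fibre genes stood apart. Actn3, the alpha-actinin of fast Z-discs, was at -1.14 in tooth and at -1.61 in skin, so that it differed by -0.47. Mylpf, the fast regulatory light chain, was not well above background in either tissue. Its sole probe begins at base 69 of the transcript, so these arrays hold no second reading of it.

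Slow-fibre genes were divided. All 8 were measured, 4 were at least 2-fold higher in skin, 4 were within 2-fold and none reached 8-fold, with a median of 1.25. Over the 7 measured on both arrays, the median was 0.54. Myoz2, the slow myozenin, was at -3.84 in tooth and -1.44 in skin, or 5.30-fold higher. Mybpc1, slow myosin-binding protein C, was at -0.57 and 1.44, or 4.04-fold higher, with 3.1 as the difference of its second probe. Tnni1, slow troponin I and the form that fetal muscle makes before the fast one, was at -2.59 and -0.63, or 3.91-fold higher. Tnnc1, slow and cardiac troponin C, was not well above background in tooth and was at -3.36 in skin, at least 2.22-fold higher. These 4 were the slow genes past 2-fold.

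The other 4 slow-fibre genes were Tnnt1, Myl2, Myl3 and Myh7. Tnnt1, slow troponin T, was at 0.79 in tooth and at 1.33 in skin, with a difference of 0.54 that its second probe gave as 0.76, and it turned to -0.09 with spike-in scaling. Myl2, the slow and ventricular regulatory light chain, was at -3.87 and -3.38, a difference of 0.49. The Myl2 difference turned to -0.14 with spike-in scaling. It turned to -0.31 when averaged with its other probe, which was not measured in either tissue. Myl3, the slow and ventricular essential light chain, was at -2.44 and -2.78, a difference of -0.35 that turned to 0.09 with normexp background correction. None of the 3 therefore had a direction that held under every processing tried.

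Outside the myosins, fast and slow isoforms of the same protein formed 6 pairs, and by measured values the fast gene had the larger difference in 5 of them. Among the heavy chains the order by measured values was mixed, with Myh1 above and Myh2 below the slow gene Myh7. The place of Myh2 rested on a skin value that was not well above background. With that value at its bound Myh2 was at -0.36, above Myh7 at -0.51, and with normexp the 2 genes were at -0.02 and -0.01. On the log2 scale the gap was 3.28 for troponin T and 1.5 for troponin I. For troponin C it was 1.31 against a tooth value of Tnnc1 that was not well above background, and 2.41 with that value at its bound. It was 0.63 for the myozenins and 0.74 for myosin-binding protein C, where it turned to -0.09 with the dim tooth value of Mybpc2 at its bound and to -0.66 with normexp. For calsequestrin, the calcium store of the sarcoplasmic reticulum, the order was the opposite: Casq2, the slow and cardiac form, differed by 1.80 and Casq1, the fast form, by 1.23. Between the actins, the fetal gene Actc1 and the adult gene Acta1 were 0.33 apart. Between the alpha-actinins the gap was 4.48, with Actn2 on the side of skin.

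**Figure D3:**
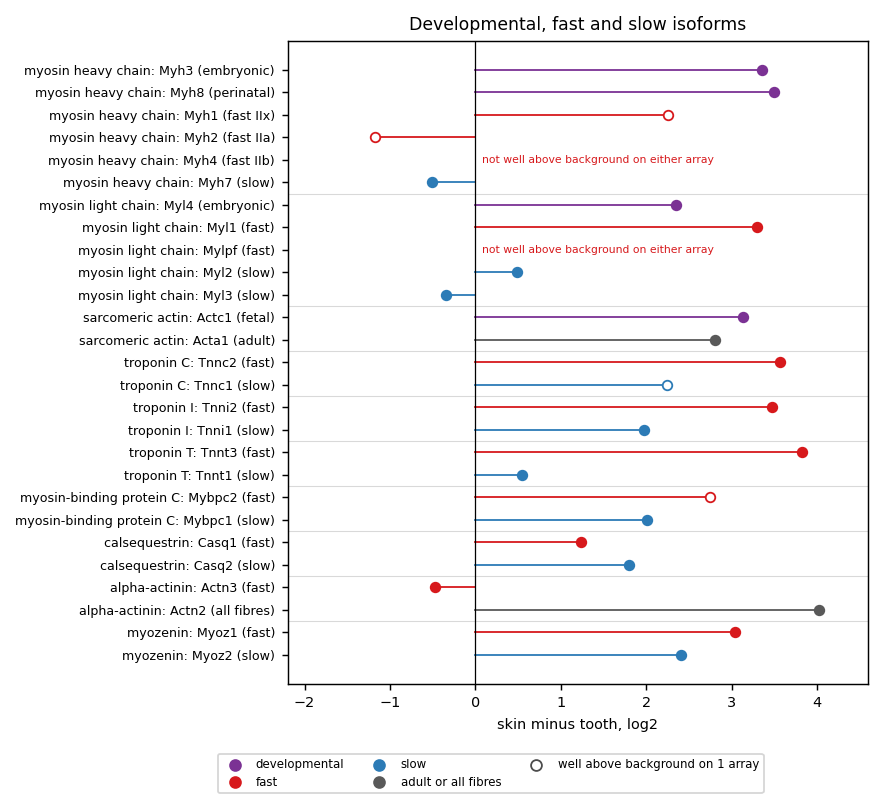
Skin minus tooth difference (log2) of each isoform, by protein family, with developmental isoforms in purple, fast in red and slow in blue; open points were well above background on 1 array. Myh3 and Myh8 lie above 3, Myh7 and Myh2 lie below 0, and in the troponin T and troponin I pairs the fast gene lies further toward skin than the slow one.

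The genes of the sarcomere scaffold were higher in skin with 1 exception. All 10 were measured on both arrays and 9 were at least 2-fold higher in skin, with a median difference of 2.76. Actn2, the Z-disc alpha-actinin of all fibres, was at -3.65 in tooth and 0.36 in skin, the largest difference among the members at 4.02, or 16.2-fold. It was 2.65 with normexp and 1.88 when averaged with its other probe, which was not measured, and Tnnc2 and Neb then had the largest. Neb, nebulin, which spans the thin filament, was at -3.35 and 0.28, or 12.4-fold higher. Ttn, titin, which joins Z-disc and M-band, was at -2.49 and 0.81, or 9.83-fold higher. Both giants were read by several probes along transcripts of many kilobases. By measured values the 3 measured Neb probes gave 3.63 to 4.23, and the 3 measured Ttn probes gave 3.30 to 4.58. For each gene, only the probe that stands for it was well above background in tooth. The other differences in these ranges therefore rest on dim tooth values. The titin probe nearest the start of the transcript was not well above background in either tissue.

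Des, desmin, the muscle intermediate filament, was read on 7 spots per array and was at -3.61 ± 0.12 in tooth and at -0.72 ± 0.06 in skin (SD, n = 7 spots), and so differed by 2.89. Acta1, skeletal alpha-actin, was at 1.36 in tooth and 4.16 in skin, or 6.98-fold higher. Tcap, which anchors titin at the Z-disc, was at -1.94 and 0.75, or 6.47-fold higher. These genes differed by amounts near the median of the group. Mybph, a thick-filament protein related to myosin-binding protein C, was at -4.36 and -1.64, or 6.58-fold higher. Myom1, the M-band protein myomesin, was at -2.95 and -1.31, or 3.11-fold higher. Ldb3, a Z-disc PDZ and LIM protein, was at -0.80 and 0.71, or 2.86-fold higher, with 2.39 from its second probe. The exception was Myom2, M-protein, found in the M-band of fast fibres: it was at 2.31 in tooth and 1.33 in skin, 1.97-fold higher in tooth. It had 1 probe.

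Genes of excitation and calcium handling were higher in skin by less. Of 11, 10 were measured, 7 were at least 2-fold higher in skin, none reached 8-fold and the median was 1.40. Sln, sarcolipin, an inhibitor of the calcium pump, was at -1.5 in tooth and 1.10 in skin, or 6.09-fold higher. Its target Atp2a1, the fast calcium pump, was at -2.07 and -1.21, or 1.82-fold higher. Ryr1, the calcium release channel, was at -3.51 and -1.13, or 5.20-fold higher. The regulator thus differed more between the arrays than the pump did. Cacng1, the gamma subunit of the voltage sensor of that channel, was not well above background in tooth and was at -2.54 in skin, at least 3.94-fold higher. Casq1 was at -3.57 in tooth and at -2.34 in skin, with Casq2 at -3.34 and -1.53. Cav3, the muscle caveolin, was at -0.96 and 0.62, or 3.0-fold higher. Pvalb, the calcium buffer parvalbumin, which certain neurons make too, was at -0.77 and -0.19, a difference of 0.57 that turned to -0.06 with spike-in scaling.

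The 2 probes of Cacna1s, the pore of the voltage sensor, went opposite ways. The brighter one, which stands for the gene, was at 0.56 in tooth and at 0.18 in skin, with a difference of -0.38, and the one nearer the start of the transcript was at -2.71 and -0.23, a difference of 2.48. Their mean was 1.05. Among the 10 members with at least 2 measured probes, Cacna1s was the one whose probes differed in direction. The next widest spread was that of Myh8, from 0.94 to 3.49 over 3 measured probes.

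**Figure D4:**
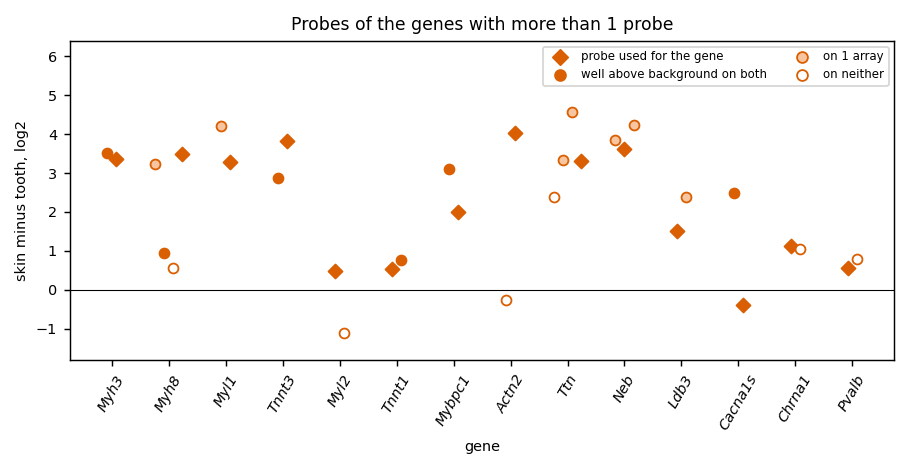
Skin minus tooth difference (log2) of each probe of the 14 members with more than 1 probe, in transcript order within a gene; the diamond is the brightest probe, used for the gene, and paler or open points were well above background on 1 array or neither. Probes of 9 genes with at least 2 measured probes all lie above 0, and those of Cacna1s lie on both sides.

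The acetylcholine receptor changes its subunits with age, the gamma subunit of fetal muscle giving way to epsilon. Chrng, the gamma subunit, was not well above background in either tissue, and neither was the epsilon gene Chrne, so the arrays did not separate the fetal from the adult receptor. Chrna1, the alpha subunit that both forms share, was at -3.51 in tooth and -2.38 in skin, or 2.20-fold higher. Chrnd, the delta subunit, which is not one of the 52, was at -4.02 and -1.77, a difference of 2.25.

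All 3 energy genes were at least 2-fold higher in skin. Ckm, muscle creatine kinase, was at -2.35 in tooth and 1.03 in skin, or 10.4-fold higher. Pygm, muscle glycogen phosphorylase, was at -1.05 and 0.68, or 3.32-fold higher. Eno3, the muscle enolase, was at 2.10 and 3.53, or 2.69-fold higher.

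Of the 5 regulators, 2 were measured, both in skin alone. Myog, myogenin, was read on 10 spots per array, at -4.90 ± 0.55 in tooth, where it was not well above background, and -2.71 ± 0.22 in skin (SD, n = 10 spots), at least 3.49-fold higher. Myf6, also called Mrf4, a bHLH factor of late differentiation and of mature fibres, was at -2.67 in skin and at least 3.58-fold higher there. The factors of early commitment, Myod1 and Myf5, and the satellite cell gene Pax7 were not well above background in either tissue; Myod1 and Myf5 had 10 spots each, Pax7 1. All their values lay below the lowest signals called well above background, -4.52 in tooth and -3.73 in skin.

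The upstream sequences of the members were read from RefSeq windows of 250 bases before the transcription start (GRCm38.p6), which matched 41 of the 52 genes with 46 windows. The E-box CANNTG, the motif that the myogenic bHLH factors bind, occurred in 78.3% of member windows and 66.2% of all 32851 windows. Its form CAGCTG, counted again within CANNTG, occurred in 41.3% against 13.0%. The MEF2 box occurred in 15.2% against 2.92%, the CArG box of serum response factor in 15.2% against 1.47%, and the MCAT box CATTCC of the TEAD factors in 23.9% against 12.6%, all on either strand. Such matches are descriptions of sequence and no evidence of binding. The windows of Acta1 (chr8:123894776-123895025, minus strand), Myog (chr1:134289754-134290003, plus strand) and Chrng (chr1:87205561-87205810, plus strand) are printed as a structural gene, a regulator measured in skin alone and a fetal gene measured in neither tissue, with E-boxes and CArG boxes in capitals. Acta1 held 2 E-boxes and 1 CArG box, Myog 2 E-boxes, and Chrng 3 E-boxes, 2 of them in the CAGCTG form.

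Acta1: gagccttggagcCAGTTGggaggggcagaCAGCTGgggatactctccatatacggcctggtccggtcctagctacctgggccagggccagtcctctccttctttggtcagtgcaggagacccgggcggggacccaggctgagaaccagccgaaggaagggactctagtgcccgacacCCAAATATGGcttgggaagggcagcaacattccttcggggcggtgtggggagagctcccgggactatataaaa
Myog: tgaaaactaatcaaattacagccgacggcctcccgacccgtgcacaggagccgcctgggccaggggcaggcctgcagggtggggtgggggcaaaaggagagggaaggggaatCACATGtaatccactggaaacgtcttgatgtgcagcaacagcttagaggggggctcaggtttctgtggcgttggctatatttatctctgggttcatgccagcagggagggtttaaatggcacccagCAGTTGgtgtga
Chrng: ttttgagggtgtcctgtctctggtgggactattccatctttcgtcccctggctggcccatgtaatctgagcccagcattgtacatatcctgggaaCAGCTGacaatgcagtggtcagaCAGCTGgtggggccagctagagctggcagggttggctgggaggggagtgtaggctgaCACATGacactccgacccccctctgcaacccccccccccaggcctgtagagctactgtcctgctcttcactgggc

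A further list of 51 skeletal muscle genes, with no gene in common with the 52, was read in the same way. Of these, 42 were measured, 31 of them on both arrays and 10 in skin alone. By measured values 24 passed 2-fold toward skin (57.1%, against 14.2% of all genes) and 3 toward tooth (7.14% against 15.5%). The median difference was 1.09. The 10 genes measured in skin alone passed the filter through skin only, and all of them are among the 24. With dim values at their bound 24 genes passed toward skin, against 14.0% of all genes. Klhl41, a sarcomere stabiliser, was measured in skin alone and was at least 5.08-fold higher there, and Smpx, a small muscle cytoskeletal protein, at least 8.25-fold. Myot, myotilin of the Z-disc, differed by 3.05 and Cox6a2, the muscle cytochrome oxidase subunit, by 2.70. Mymk, the fusion protein myomaker, differed by 1.11. Genes in the opposite direction included Stac3, part of the excitation machinery, at -4.81, and Dysf, the membrane repair protein dysferlin, at -2.72.

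Genes of other contractile and connective cells are given beside these results because bulk RNA holds all cells of a tissue, and fewer muscle cells and less RNA per muscle cell cannot be told apart in it. Beside each list, 14.2% of all genes passed 2-fold toward skin and 15.5% toward tooth. Of 10 smooth muscle genes, 8 were measured, 1 passed 2-fold toward skin (12.5%) and 3 toward tooth (37.5%): Acta2, smooth muscle actin, differed by -2.74, Cnn1, calponin, by -4.30 and Tagln, transgelin, by -1.72. The 1 toward skin was Synpo2, at 2.57. Within 2-fold were Myh11 at 0.18, Smtn at 0.12, Actg2 at -0.98 and Mylk at -0.98. Des, which smooth muscle also makes, was higher in skin, as Synpo2 was. Of 8 heart genes, 5 were measured and 1, Tnnt2, cardiac troponin T, which fetal skeletal muscle makes too, was at least 2-fold higher in skin, by 3.72. Myh6 and Tnni3, which define working heart muscle, were well above background in tooth alone, at -3.38 and -3.71. Their skin values were -4.09 and -4.02, so that tooth was higher by at least 1.27-fold and 1.01-fold only. Of 5 tendon genes, 4 were at least 2-fold higher in tooth, among them Tnmd, tenomodulin, at -1.66, and Scx, scleraxis, was higher in skin by 1.35. Of 10 genes of muscle progenitors in head and trunk, 8 were measured, 1 passed 2-fold toward skin (12.5%), Pax3 at 1.15, and 3 toward tooth (37.5%). The part of any of these cells in the muscle values was not tested.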

How the data were processed

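Total RNA of 1 tooth and 1 skin sample was labelled with Cy3 and hybridised to SurePrint G3 Mouse 8×60K arrays. The deposited files hold spot intensity from Agilent Feature Extraction 10.7.3.1 (submitters' processing notes), background-subtracted by that program. The authors' own table holds a ratio of that intensity to 1 constant per array. Per the methods, the authors normalized by a percentile shift in GeneSpring. Probe coordinates are mm9.

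From the intensity, spots with outlier flags were left out, spots of a probe averaged on the log2 scale, and each array's 75th percentile subtracted. A gene was read by its brightest probe. RefSeq accessions matched for 82.1% of named probes. With 1 array per tissue no test was run, and the number of arrays limits the precision. A gene dim on 1 array is given as a bound against the higher of that array's lowest signal well above background and the dim value itself. This bound is a convention and no strict limit. Myh4, at -4.42 in tooth, lay above the lowest such signal there, -4.52, and was not called well above background. All 52 members are named, and members, roles and other lists were chosen with earlier results of these data known. The other lists are named by their examples. The 9 alternatives, among them normexp (limma 3.58.1, R 4.3.3, offset 50) and the deposited ratio table, are in the closing section. The calculation (Python 3.11.15, pandas 2.3.3, numpy 2.4.6) was tested on simulated data.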

Additional observations from a re-analysis of the deposited data

How the results depend on the processing

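The median difference of the members stayed toward skin under all 9 alternatives, from 1.34 to 2.35 where the reported value was 2.30. The number at least 2-fold higher in skin was between 30 and 37, over differing numbers of members. The 30 were of 39 members well above background on both arrays (11.4% of all genes). The 37 were of 46 members with probes averaged (14.2% of all genes) and of 52 without the filter (15.1%). Without the filter the 37 include Chrng, measured in neither tissue. Under the alternatives 9.02% to 15.1% of all genes passed toward skin. Toward tooth it was 20.1% with median centring, 32.6% with spike-in scaling and 9.6% with normexp. It was 12.3% among genes on both arrays and 13.3% with dim values at their bound. A value is said to have moved when it changed by more than 0.12, the spot scatter of a difference. The regulator median rests on 2 genes, Myog and Myf6, except where the filter is dropped. Both were measured in skin alone, so the filter largely set the direction of that median. With median centring the member median was 2.05, with 2 members at least 2-fold higher in tooth, and the role medians were 2.99 for developmental contractile, 2.79 for fast-fibre, 1.0 for slow-fibre, 2.51 for scaffold, 1.16 for calcium, 1.48 for energy and 2.64 for regulator genes. With spike-in scaling (8 spike-in probes) the member median was 1.67, with 5 members at least 2-fold higher in tooth, and the role medians, in the same order, were 2.61, 2.41, 0.62, 2.13, 0.77, 1.10 and 2.26. With normexp the member median was 1.34, with 0 members past 2-fold in tooth, and the role medians were 2.96, 2.22, 0.64, 1.92, 0.93, 1.45 and 1.02. Quantile normalization gave a member median of 2.12 and 2.55 for regulators, and averaging probes gave 2.74 for developmental genes. Among genes well above background on both arrays, 0 members were past 2-fold in tooth, and fast-fibre, slow-fibre and calcium medians were 3.38, 0.54 and 1.23. Without the filter the member median was 2.10, and fast-fibre, calcium and regulator medians 2.75, 1.58 and 0.79. With dim values at their bound the member median was 1.95, 0 members were past 2-fold in tooth, and slow-fibre and regulator medians were 0.85 and 1.82. The deposited ratio table changed nothing. The causes were not tested. Of the members' own differences, counted over all alternatives, 239 stayed within the spot scatter, 168 moved and 0 changed sign from a value past 2-fold. Much of this tally was set by the settings themselves. The filter settings, the ratio table and the bounds of genes measured on both arrays return the same differences. Median centring and spike-in scaling move every gene by the same amount. The tally is therefore no measure of robustness. The 5 members whose sign changed from a value under 2-fold were Myl2, Myl3, Tnnt1, Cacna1s and Pvalb. No paired analysis was possible because each tissue had 1 array.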

Other observations

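Unnamed and long noncoding RNA probes near the muscle genes were read as well. Within 20 kb of member probes (mm9) lay 42 such probes near 9 members, 37 of them for long noncoding RNAs, and 23 were measured. The median difference of these was -0.01, with a range of -1.05 to 1.51; 11 of the 23 lay near Myoz1, several of them overlapping, and the median of the other 12 was 0.32. Of all 23, 2 passed 2-fold toward skin and 1 toward tooth, where 14.2% and 15.5% of all measured named genes did. The probe higher in tooth lies directly beside the Myh7 probe on the same strand, at chr14:55589521-55589580, and was at -1.97 in tooth and -3.02 in skin, next to the Myh7 difference of -0.51. The largest value toward skin, 1.51, came from a long noncoding RNA probe 18974 bases from the Acta1 probe that was measured in skin alone. An unnamed probe 2297 bases from the sole Mylpf probe and on its strand was measured in both tissues, at -2.68 in tooth and -1.86 in skin, where Mylpf was not. These probes were described after their values were seen.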
